A study of Mus musculus with 6 samples.

Results

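The chitinase family was followed in taste cells of the mouse tongue at 2 and 6 months of age. Its members were selected on their names, which begin with Chi3l, Chia, Chit1 or Chid1, and the family was put forward with the values of both ages already known. Its levels and changes are therefore given as a description, with no test. The name rule found 6 genes among the 23361 genes of the table, which were Chi3l1, Chi3l3, Chi3l4, Chia, Chit1 and Chid1. A gene is called expressed here when the mean of its 2 values reached 1 FPKM, which held for 4 members and for 12652 genes of the whole table. FPKM is the number of fragments mapped to a gene, scaled by the length of its transcript and by the number of mapped reads, so that levels can be compared between genes. RefSeq now lists Chi3l1, Chi3l3, Chi3l4 and Chia under the symbols Chil1, Chil3, Chil4 and Chia1.

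The cells came from circumvallate and foliate papillae, where taste buds sit on the rear and flanks of the tongue, of C57BL/6 mice with no further genotype or treatment in the labels. Enzyme solution was injected under the lingual epithelium, the epithelium was peeled off, and taste cells were drawn into a capillary pipette, so that other epithelial cells may have come along. Each of the 3 libraries of 2-month-old mice held the cells of 4 mice, and each of the 3 libraries of 6-month-old mice held the cells of 3 mice. The table holds 1 value per gene and age, which is the authors' estimate over the 3 libraries. The spread between pools could not be seen, so values carry no SD, differences have no replicate check, and the depth of the libraries is unknown.

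Chitin, a polymer of N-acetylglucosamine, builds the shells of insects and crustaceans and the walls of fungi, and mammals do not make it. Mammals still carry enzymes that cut chitin, together with close relatives that kept the fold of the enzyme and its sugar-binding groove but lost the activity. Chit1 (chitotriosidase) and Chia (acidic mammalian chitinase) are active enzymes. Chi3l1 (also BRP-39 or YKL-40), Chi3l3 (Ym1) and Chi3l4 (Ym2) are the chitinase-like proteins, secreted lectins best known from macrophages, allergic airways and inflamed epithelia. Chid1 is a distant relative of the same fold that binds saccharides.

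What separates enzymes from chitinase-like proteins can be read from their transcripts. The active site lies in a conserved motif whose glutamate donates the proton for cutting the sugar bond. The 30 coding bases over this motif are shown for 5 members, read from GENCODE transcripts of GRCm38, with the codon at the place of that glutamate in capitals.
Chit1: gatggccttgaccttgactggGAGttccca
Chia: gatggactggacctggactggGAAtaccca
Chi3l1: gatgggctggatctcgcctggCTCtaccct
Chi3l3: gatggcctcaacctggactggCAGtaccct
Chi3l4: gatggcctcaacctggactggCAGtaccct
The codon is GAG in Chit1 and GAA in Chia, and both encode glutamate. It is CTC in Chi3l1, which encodes leucine, and CAG in Chi3l3 and Chi3l4, which encodes glutamine. No stretch of this pattern was found in the longest reading frame of Chid1. Sorted in this way, the pools of isolated cells held 1 expressed active chitinase, Chit1, and 2 expressed chitinase-like genes, Chi3l4 and Chi3l1, besides the distant relative Chid1. Which cells of the pools made these RNAs was not tested.

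The most abundant member at 2 months was Chi3l4, at 460.2 FPKM, and by 6 months its value was 56.6 FPKM. Chit1 stood at 136.0 FPKM in the younger and 136.3 FPKM in the older mice. Chi3l1 went from 24.4 to 15.3 FPKM. Chid1 was at 6.89 and 5.34 FPKM, and where a pair of values is given in this way here and further on, that of 2 months comes first. The order at 2 months was thus Chi3l4, Chit1, Chi3l1 and Chid1, and at 6 months Chit1 stood before Chi3l4, with the other two in the same places. Chi3l3 was at 0.316 and 0.175 FPKM and Chia at 0.185 and 0.170 FPKM, both below 1 FPKM in either age. At levels this low, and without the values of single libraries, the order of Chi3l3 and Chia was not resolved.

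**Figure D1:**
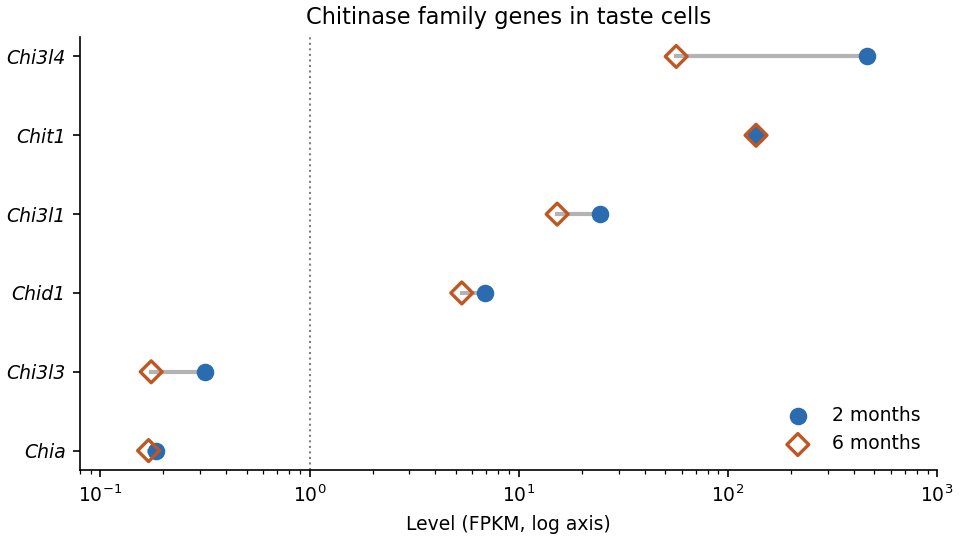
Levels of the 6 family genes in FPKM on a log axis, with filled circles for 2 months and open diamonds for 6 months, each the authors' single value for that age. The dotted line marks 1 FPKM. The gap between the ages is widest for Chi3l4 (460.2 and 56.6 FPKM), and both symbols of Chit1 coincide at 136 FPKM.

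Chi3l4 was 8.13 times as high at 2 months as at 6 months. On the log2(FPKM + 1) scale, on which all changes are given here as 6 months minus 2 months, its change was -3.00. It held rank 226 by level among all genes of the table at 2 months and rank 1526 at 6 months. Chi3l1 had a log2 change of -0.64 and went from rank 3714 to rank 5308. Chid1 had a log2 change of -0.31, and Chit1 of 0.00, with rank 644 at 2 months and 602 at 6 months. The changes of Chi3l3 and Chia on the same scale were -0.16 and -0.02, and the added 1 FPKM makes a change at such levels small whatever the ratio.

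For comparison, the median log2 change of the 12652 expressed genes was -0.01, and their quartiles were -0.10 and 0.08. Of the family, 1 gene, Chi3l4, was at least 2-fold lower at 6 months, and 0 were at least 2-fold higher. Over all of these genes the shares were 1.04% lower and 0.561% higher. At a fold of 1.5, Chi3l4 and Chi3l1 were lower, and 1.72% of all these genes were. The family was put forward with this contrast known, so nothing is read from its count against these shares. Some expressed genes were listed at exactly 0 in one age, 31 of them at 2 months and 48 at 6 months, among them the abundant keratin gene Krt4, and an exact 0 can be an estimate that failed. Without them, 0.66% of 12573 genes were at least 2-fold lower, and 14 had a more negative change than Chi3l4. All 6 family genes had values above 0 in both ages.

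**Figure D2:**
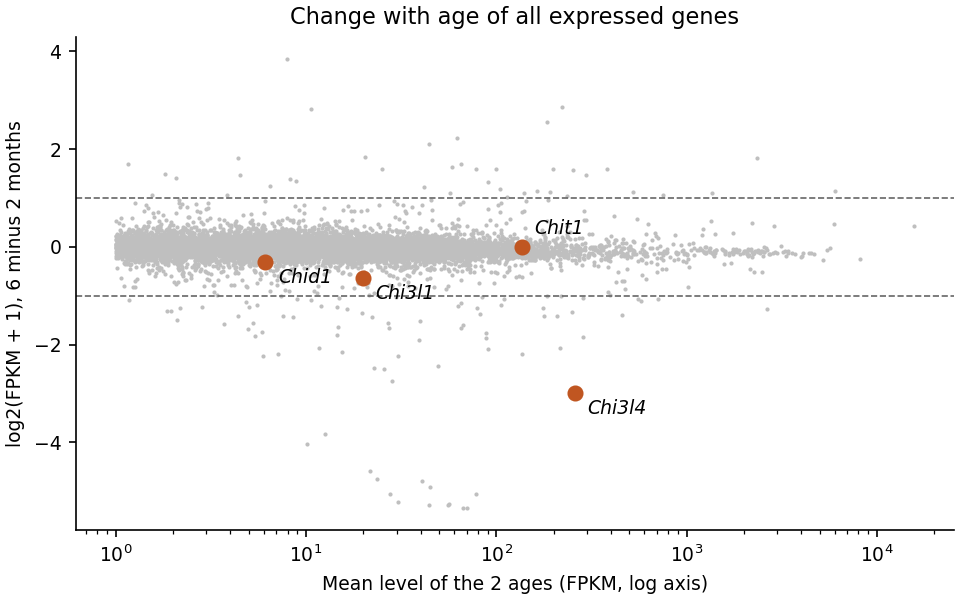
The log2(FPKM + 1) change from 2 to 6 months against the mean level of both ages in FPKM on a log axis, for the 12573 expressed genes that were above 0 in both ages (grey) and the 4 family genes among them (orange). Dashed lines mark a 2-fold change. Chi3l4 lies at -3.00, Chi3l1 at -0.64, Chid1 at -0.31 and Chit1 on the zero line.

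The make-up of the family's RNA differed between the ages. The 6 genes summed to 628 and 213.8 FPKM at 2 and 6 months. Without Chi3l4 the sums were 167.8 and 157.2 FPKM, a log2 change of -0.09. Chi3l4 made up 73.3% of the family's summed level at 2 months and 26.5% at 6 months. Chit1 made up 21.7% and 63.7%. The ratio of Chi3l4 to Chit1 was 3.38 at 2 months and 0.415 at 6 months. Most of the family's RNA was thus that of a chitinase-like gene in the younger mice and that of an active chitinase gene in the older mice. In such bulk samples, fewer cells that transcribe Chi3l4 and less Chi3l4 RNA in each cell cannot be told apart.

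Chi3l4 and Chi3l3 are near-identical copies, so it was asked how far their reads could be mixed up. Their transcripts, of 1539 bases and 11 exons each, were identical at 94.2% of aligned positions. Of all stretches of 50 bases in the Chi3l4 transcript, 18.5% also occur unchanged in Chi3l3, and the same share holds the other way round. In no other pair of family members was a stretch of 50 bases shared, and the next highest identity was 66.8%, between Chi3l3 and Chia. The value of Chi3l3 amounted to 0.0687% of that of Chi3l4 at 2 months and to 0.309% at 6 months. Summed, the copies came to 460.5 and 56.8 FPKM, and the log2 change of the sum was -3.00, as for Chi3l4 alone. The separate value of Chi3l3 is uncertain, since reads common to both copies can be split between them.

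**Figure D3:**
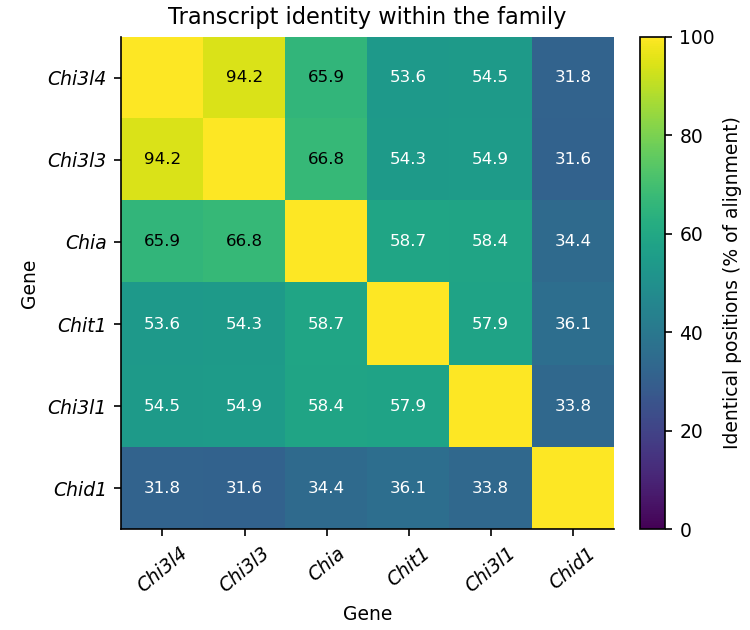
Identity of the family's transcripts, as the percentage of identical positions in a global alignment of each pair, with the gene in rows and columns. The pair Chi3l4 and Chi3l3 stands out at 94.2%, and Chid1 is at 31.6% to 36.1% with every other member.

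The copies also resemble each other ahead of their starts. The 250 bases before the RefSeq start of each gene in GRCm38.p6 are shown because the genes are at such different levels in these pools. Matches to the TATA box (TATAAA) are in capitals. Both genes lie on the minus strand, Chi3l4 with its window at chr3:106219480-106219729 and Chi3l3 with its window at chr3:106167565-106167814.
Chi3l4: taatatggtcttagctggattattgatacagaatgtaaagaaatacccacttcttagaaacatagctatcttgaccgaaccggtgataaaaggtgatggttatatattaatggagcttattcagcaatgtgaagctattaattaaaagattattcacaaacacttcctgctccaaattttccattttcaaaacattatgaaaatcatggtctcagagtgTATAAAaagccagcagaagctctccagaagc
Chi3l3: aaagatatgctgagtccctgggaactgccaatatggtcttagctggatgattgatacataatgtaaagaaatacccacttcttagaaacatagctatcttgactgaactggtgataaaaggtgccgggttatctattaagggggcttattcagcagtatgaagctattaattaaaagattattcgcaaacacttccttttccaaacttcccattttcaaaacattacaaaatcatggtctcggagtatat
Aligned with free ends, the windows shared 223 columns, of which 90.1% were identical, and the annotated starts lay 28 bases apart. The TATA box of Chi3l4 begins 31 bases before its start. The same letters in Chi3l3 begin 3 bases before its annotated start and run across it, and so fall outside its window.

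The windows of all 6 genes, 8 in number since Chid1 has 3 annotated starts, were also searched on both strands for the AP-1 motif TGANTCA and the STAT6 motif TTCNNNNGAA. AP-1 factors are the subject of the study from which the samples come, and STAT6 carries the interleukin-4 and interleukin-13 signal that induces the Ym genes in macrophages. An AP-1 match was found in 1 window, that of Chit1, beginning 52 bases before the start, and in 6.7% of 32851 windows of all genes. A STAT6 match was found in 0 of the 8 windows and in 5.9% of all windows. TATAAA was found in 2 of the 8, those of Chi3l4 and Chia, and in 12.4% of all windows. Chi3l4 had neither the AP-1 nor the STAT6 letters in its window. Most windows of all genes lack each of them, so nothing is read from this, and it says nothing about sites elsewhere.

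Chi3l4 lies in a cluster of the family on chromosome 3 (chr3:106201491-106219479), next to Chi3l3 (chr3:106147554-106167564) at a gap of 33.9 kb and Chia (chr3:106113382-106132118) at a gap of 69.4 kb. Within 250 kb of Chi3l4 the table had 4 genes outside the family. Of these, 2 were expressed. Atp5f1, a subunit gene of the mitochondrial ATP synthase, was at 170.6 and 160.3 FPKM, and Wdr77, a partner of an arginine methyltransferase, was at 20.3 and 20.6 FPKM. Ovgp1, the oviductin gene, which belongs to the same enzyme fold, was at 0.779 and 0.804 FPKM. Pifo, a gene of primary cilia, was at 0.247 and 0.103 FPKM. Within 250 kb of Chi3l3 and of Chia there were also the adenosine receptor gene Adora3, at 0.0807 and 0.0837 FPKM, and I830077J02Rik, at 0.306 and 0.323 FPKM. The log2 changes of Atp5f1 and Wdr77 were -0.09 and 0.02, against -3.00 for Chi3l4.

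Chit1 (chr1:134111242-134151541) and Chi3l1 (chr1:134182156-134190031) are neighbours on the plus strand of chromosome 1, at a gap of 30.6 kb. Chit1 showed the same level at both ages and Chi3l1 the lower value at 6 months given above, and the ratio of Chit1 to Chi3l1 was 5.57 at 2 months and 8.93 at 6 months. The 5 expressed genes outside the family within 250 kb of Chi3l1 all had negative changes, from -0.43 to -0.14. So had the 4 around Chit1, from -0.48 to -0.14, but the windows overlap, and Btg2, Ppfia4 and Tmem183a are counted in both. For all expressed genes the median was -0.01, with quartiles of -0.10 and 0.08. Whether this region differs from them was not tested. Btg2, an antiproliferative immediate early gene with 61.1 and 45.2 FPKM, lies within both windows, 32.1 kb from Chit1 and 103.0 kb from Chi3l1. Prelp, a matrix protein gene within the window of Chit1, was at 2.66 and 1.62 FPKM. Mybph, the muscle protein gene nearest to Chi3l1, was at 0.352 and 0.269 FPKM, and Adora1, an adenosine receptor gene, was at 0.527 and 0.565 FPKM. Chid1 lies alone on chromosome 7 (chr7:141493136-141539905). Of the 19 expressed genes within 250 kb of it, 0 were past 2-fold, and their log2 changes ran from -0.18 to 0.17.

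**Figure D4:**
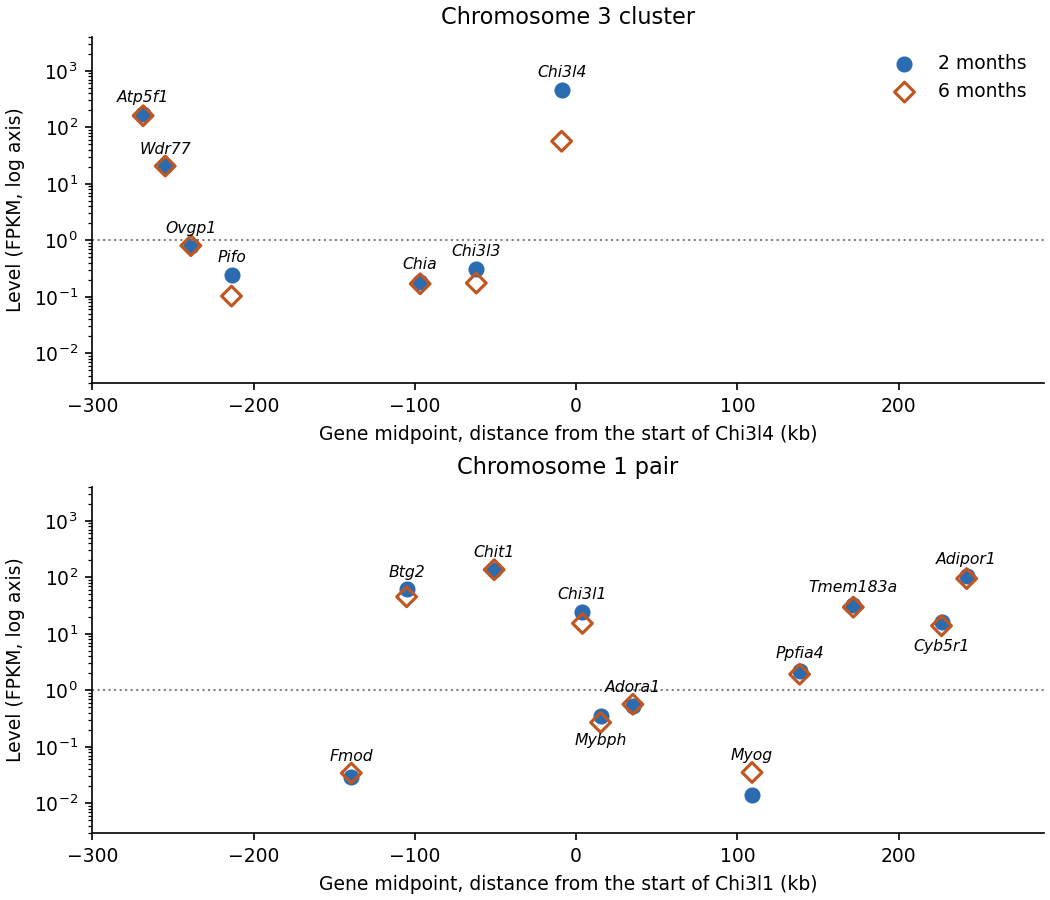
Levels in FPKM on a log axis of the table's genes within 250 kb of Chi3l4 (top) and of Chi3l1 (bottom), by the distance of each gene's midpoint from the start of that gene in kb, with filled circles for 2 months and open diamonds for 6 months. Genes listed at 0 in one age are left out, and the dotted line marks 1 FPKM. Chi3l4 stands apart from its cluster in level, and its symbols lie far apart while those of Atp5f1 and Wdr77 overlap.

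Genes of the pathway around the family were taken from lists drawn up by their known roles, with earlier results of these data known. Ctbs, the lysosomal chitobiase that shares the fold, was at 1.72 and 2.04 FPKM. Among 12 genes that break down N-acetylglucosamine chains or use the freed sugar, Ctbs included, all 12 were expressed and 0 were past 2-fold in either direction, with a median log2 change of -0.04. The most abundant was Nagk, the N-acetylglucosamine kinase, at 30.1 and 31.4 FPKM.

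Of 6 genes whose products bind Chi3l1 or act with its receptor, 4 were expressed and 0 were past 2-fold, with a median log2 change of 0.09. The galectin gene Lgals3 was at 403 and 443 FPKM at 2 and 6 months, the syndecan gene Sdc1 at 259 and 268 FPKM, and the hyaluronan receptor gene Cd44 at 79.7 and 77.8 FPKM. Tmem219, which forms a receptor with the interleukin-13 decoy receptor, was at 16.7 and 18.4 FPKM. Il13ra2, the decoy receptor itself, was at 0.0294 FPKM at 2 months and listed at 0 at 6 months.

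The type 2 immune response is the setting in which the chitinase-like genes are best known. Of 24 genes of this response, 12 were expressed and 0 were past 2-fold, with a median log2 change of -0.03. Arg1, the arginase of alternatively activated macrophages that is also made by keratinocytes, was at 402 and 345 FPKM. Of the other alternative activation genes, Mgl2 was at 1.25 and 1.18 FPKM, Retnla at 0.145 and 0.550 FPKM and Mrc1 at 0.192 and 0.149 FPKM. Retnlb was listed at 0 in both ages. Il33, an alarmin of epithelia, was at 139 and 129 FPKM, and Stat6 was at 51.9 and 54.8 FPKM. The cytokines Il4 and Il13 stood below 0.1 FPKM in both ages.

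Cells other than taste cells were looked for by marker lists. All 12 taste cell markers were expressed with 0 past 2-fold, and their sums were 555.8 and 519.8 FPKM at 2 and 6 months. Their log2 changes were negative for 5 and positive for 7, with a median of 0.10. The highest in level, Krt8, a keratin of taste buds, Gnat3, the taste G protein, and Entpd2, an ectonucleotidase of glia-like taste cells, were among the 5. Macrophage and other leukocyte markers had 11 of 17 genes expressed and 0 past 2-fold, and their sums were 497.3 and 458.4 FPKM. Of the 11, 4 had negative and 7 positive log2 changes, with a median of 0.03. The highest of them were Lyz2, a lysozyme gene, at 293 and 254 FPKM, and the antigen presentation genes Cd74 and H2-Aa, while Ptprc, which all leukocytes express, was at 1.54 and 1.65 FPKM. Neutrophil markers had 5 of 13 genes expressed and 0 past 2-fold, with sums of 2295 and 2152 FPKM. Most of these sums was Ltf, the lactoferrin gene, at 2144 and 2016 FPKM, followed by S100a9 and S100a8, and all 3 are also made by glands or epithelium. The granule genes Mpo and Elane were near 0, with Mpo at 0.00558 and 0.0276 FPKM and Elane listed at 0. Csf3r, at 3.399 and 3.598 FPKM, and Cxcr2, at 4.768 and 4.47 FPKM, were the remaining expressed genes of this list. Retnlg was at 1.179 and 0.6394 FPKM. Beside these, Chi3l4 was at 460.2 and 56.6 FPKM, and the part of leukocytes in its values was not tested.

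The gland and keratinocyte lists had the most negative medians of the 10 lists. Of 24 genes of lingual and salivary gland secretion, 14 were expressed, 4 of them were at least 2-fold lower at 6 months and 1 was at least 2-fold higher. Over all expressed genes the shares were 1.04% lower and 0.561% higher. The median log2 change of the 14 was -0.45, with 12 negative and 2 positive. The list summed to 1798 and 1018 FPKM at 2 and 6 months, and Slpi, at 958 and 454 FPKM, was the largest part of both sums. Changes were uneven, with Muc5b at -0.14, Pigr at -0.20 and Lyz1 at -0.23. Those of Aqp5, Dcpp3, Amy1 and Dcpp1 were -0.578, -0.564, -0.445 and -0.305. Dcpp2, at the low level of 1.45 and 3.28 FPKM, had a log2 change of 0.81. Genes at least 2-fold lower were Lipf, the lingual and gastric lipase, with a log2 change of -2.43, and Lyg1, a lysozyme, with -1.66. The others were Bpifb1, a secreted lipid-binding protein, with -1.36, and Slpi, a protease inhibitor, with -1.07. The paper had already reported Lipf, Lyg1 and Slpi as lower in the older mice from these same data, and by qRT-PCR as well. The count of this list is therefore no independent result. Scgb1a1, a secretoglobin of airway club cells, was higher at 6 months, with 1.87 and 19.4 FPKM. Wfdc2, a further secreted inhibitor, was at 564 and 411 FPKM. The saliva genes Car6 and Prol1 were listed at 0 in both ages.

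Of 12 keratinocyte markers, 11 were expressed, 2 were at least 2-fold lower and 1 was at least 2-fold higher, with a median log2 change of -0.52. Among all expressed genes, 1.04% were lower and 0.561% higher by this measure. Krt10, a keratin of cornifying layers, was at 150 and 70.5 FPKM at the 2 ages. The other 2 were Krt4, listed at 7334 FPKM at 2 months and at 0 at 6 months, and Krt6a, listed at 0 and at 3391 FPKM, and such values cannot be read as changes. Krt13 was listed at 0 in both ages, although it is a major keratin of the tongue surface. Krt5, a keratin of the basal layer, was at 2180 and 1962 FPKM. Its partner Krt14, at 1287 and 1533 FPKM, and the desmosome gene Dsg1a, at 68.9 and 75.6 FPKM, had positive log2 changes. Lor, at 1292 and 732.9 FPKM, had a log2 change of -0.82. Those of Ivl, Krt1, Krt16 and Trp63 were -0.59, -0.57, -0.52 and -0.17. Of the 11, 8 had negative and 3 positive log2 changes, the zeros included. Counted in the same way, with Krt4 and Krt6a included, the list summed to 13310 and 8481 FPKM. These sums cannot be read as a change either. The paper had already reported cornification pathways as lower in the older mice from these same data. Whether the share of gland or cornifying cells had a part in the lower value of Chi3l4 at 6 months was not tested.

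**Figure D5:**
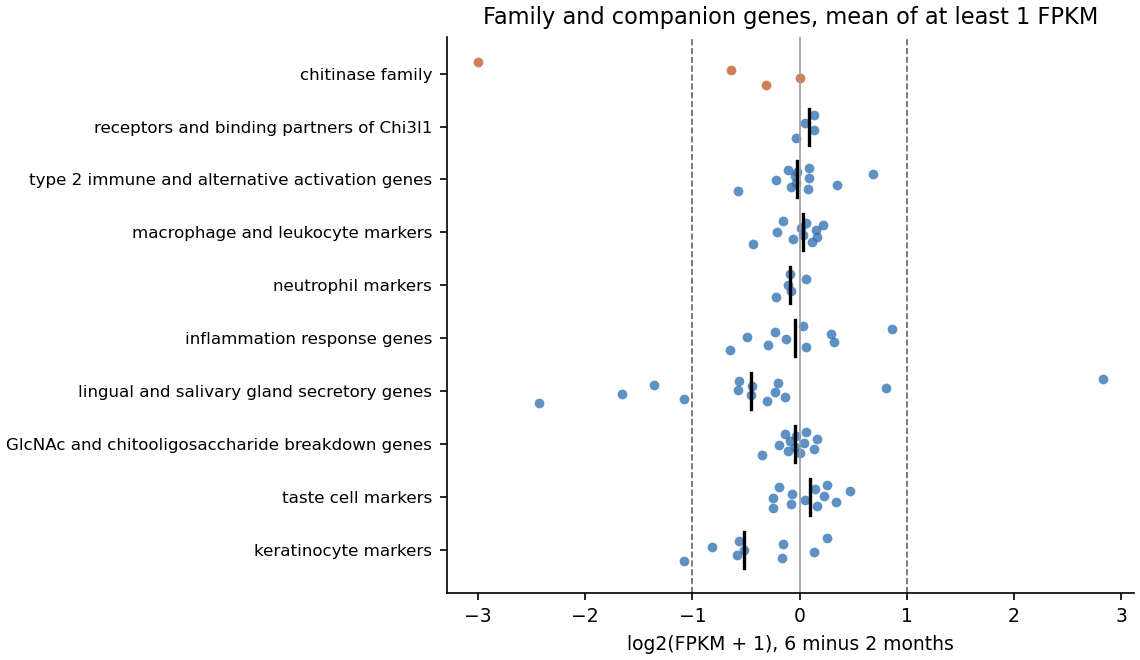
The log2(FPKM + 1) change from 2 to 6 months of the 4 family genes (orange) and of the genes of the companion lists (blue) that were expressed and above 0 in both ages. A list of further genes of the fold, with Ctbs its only expressed gene, is not drawn. Each point is a gene, black bars are medians of the lists, and dashed lines mark a 2-fold change. Points beyond the lines on the left are Chi3l4, 4 gland genes and the keratin gene Krt10.

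The genes whose pair of values lay nearest to that of each member were found by the distance on the log2(FPKM + 1) scale over the 2 ages, a comparison of only 2 points per gene. The nearest to Chi3l4 was Krt76, a keratin of the oral epithelium, at 351.6 and 82.4 FPKM, a distance of 0.66. The microRNA gene Mir1839 followed at 1.06 and Lce3b, a gene of the late cornified envelope, at 1.11. Chi3l1 was nearest to Thbs1, the thrombospondin gene, at 23.4 and 14.9 FPKM and a distance of 0.07, then to Rnf208 at 0.11 and Sdf2l1, a chaperone partner of the endoplasmic reticulum, at 0.14. Chit1 was nearest to Drap1, Ddx39b and Srsf2, whose products act in transcription and splicing, with distances of at most 0.014. Chid1 was nearest to Gpc3, Dhx34 and Fam20a, with distances of at most 0.026.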

How the data were processed

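RNA of isolated taste cells was sequenced from 3 pools per age (2 and 6 months). The authors mapped reads to GRCm38/mm10 (TopHat2 2.0.7, RefSeq annotation), derived FPKM (Cufflinks 2.1.1; library normalization not given in the sources used here) and deposited, for 23361 genes, a single FPKM for each age beside an unadjusted p-value of their Cuffdiff comparison, which was not used. The columns carry the group letters of the sample titles. No test was made, since each age has a single value. The members and lists were chosen with earlier results of these data known.

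Changes are differences of log2(FPKM + 1), 6 minus 2 months. Expressed genes reached 1 FPKM on average, and folds of 2 were counted. Named genes were all members, their neighbours within 250 kb (RefSeq GRCm38.p6, matched for 98.9% of genes by symbol or older symbol), list genes past 2-fold (at most 6) or among the 3 highest of a list, and the 3 nearest patterns per member. Other neighbours of Chit1, Chi3l1 and Chid1 are given by range or left out. Some list genes that this rule names are not reported here. Other list genes named were chosen after their values were seen. Bclp2, Chil5, Chil6, Ly6g and Zg16b were not analysed here. Of the gene names, 27 had been turned into dates and were not resolved. Transcripts of GENCODE M21 paired with RefSeq mRNAs were aligned globally with gaps counted as differences. Fold counting was tested on simulated data. Python 3.11.15, numpy 2.4.6, pandas 2.3.3, Biopython 1.88 and matplotlib 3.10.9 were used.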

Additional observations from a re-analysis of the deposited data

How the results depend on the processing

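No paired analysis was possible because single libraries have no values in the file, and for the same reason no replicate was left out. A value counted as moved when it shifted by over 0.58 on the log2 scale, or a count by over 1.5 times. The number of family genes at least 2-fold lower was 1, and 2 at a fold of 1.5, when Chi3l1 joined Chi3l4. Over all genes, 131 were lower and 71 higher, 217 and 133 at a fold of 1.5, and 83 and 40 without genes at exactly 0, a setting added after the data had been seen. The change of Chi3l3 moved from -0.16 to -3.00 when it was summed with Chi3l4, by the construction of the sum. The other 86 values recomputed stayed within these bounds. They came from a pseudocount of 0.1, a minimum mean of 5 FPKM, no minimum, scaling to the same upper quartile or median, list medians without genes at exactly 0, the fold of 1.5 for higher members, and the sum of both copies for Chi3l4. The scaling to the same median and the exclusion of zeros were, for the lists, also added after the data had been seen. Chi3l4 ran from -3.02 to -2.96 and Chi3l1 from -0.67 to -0.60. What was limiting is the lack of replicate values.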

Other observations

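Genes of the acute inflammatory response, the other setting in which Chi3l1 is known, were mixed. Of 14 listed genes, 10 were expressed, 5 of them with a negative and 5 with a positive log2 change, 0 were past 2-fold, and the median was -0.04. The highest were Il1a, at 65.9 FPKM at 2 months and 46.6 FPKM at 6 months, Nfkbia, an inhibitor of NF-kappaB, with a log2 change of -0.12, and the chemokine gene Cxcl5, at 45.9 and 47.7 FPKM. Lcn2, an iron-trapping protein of inflamed epithelium, was at 16.8 and 31.4 FPKM, a log2 change of 0.87 opposite in sign to that of Chi3l1, and Cxcl1 went from 3.89 to 2.12 FPKM. Both were chosen with their values in view. Among the type 2 genes, Ccl11, the eotaxin gene, was at 4.37 and 7.64 FPKM and Alox15, a lipoxygenase, at 33.3 and 22.1 FPKM, chosen in the same way.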
